A study of Mus musculus with 24 samples.

Results

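Nuclear copies of mitochondrial genes are stretches of mitochondrial DNA that were inserted into a nuclear chromosome, and the annotation lists them as unprocessed pseudogenes. Gm10925, Gm10222, Gm28437, Gm28438, Gm28661 and Gm13339 are 6 such rows of a table of 55385 genes. They were chosen by name because their counts had been seen to be lower in Ts65Dn mice than in wild-type (wt) littermates, so the values that selected them are those of the Ts65Dn against wt comparison. Their levels in that comparison are therefore given here as a description, and the calls that the fit across all genes made there are printed without support being drawn from them. The comparison of brain regions did not choose the members and was tested.

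The RNA-Seq libraries came from the hippocampus (HIP) and the entorhinal cortex (EC) of 6 male Ts65Dn mice and 6 male wt littermates, aged 5 to 6 months and on a mixed F1 B6C3B background. Each mouse gave 1 library per region, so there were 24 libraries in 4 groups of 6. Ts65Dn mice carry an extra minichromosome with a distal piece of Mmu16 and the centromeric part of Mmu17, a second segment that is not related to human chromosome 21. No treatment is named for either genotype, and the line was bred from trisomic females and wt B6C3B males.

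The mitochondrial chromosome encodes subunits of the respiratory chain and of ATP synthase, together with the rRNAs and tRNAs that translate them. Neurons depend on these complexes for the ATP that drives ion pumps and transmitter release. A nuclear copy keeps the sequence of the mitochondrial genes but is out of reach of the mitochondrial polymerase, and the mitochondrial genetic code would be misread in the cytoplasm. When a copy is recent, a short read from the mitochondrial transcript aligns to the nuclear copy as well as it does to its source.

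Of the 6 copies, 5 lie side by side on the minus strand of chromosome 1 in GRCm38. Gm28661, a copy of mt-Co2, lies at chr1:24614885-24615565. Gm10925, a copy of mt-Atp6, lies at chr1:24613974-24614651, and Gm28437, a copy of mt-Co3, at chr1:24613189-24613971. Gm28438, a copy of mt-Nd3, lies at chr1:24612775-24613119, and Gm10222, a copy of mt-Nd4l, at chr1:24612407-24612700. Gm10222 shares its last 4 bases with the next copy, Gm28439, so reads there are uncertain. The order is that of the mitochondrial chromosome, and the sum of the nuclear and the mitochondrial position of the first matched base was 24622578 for 4 of them and 24622577 for Gm10222. Gm13339, a copy of part of mt-Nd2, lies alone among the members on the minus strand of chromosome 2 at chr2:22590024-22590533. mt-Co2 and mt-Co3 encode subunits of cytochrome c oxidase, mt-Atp6 a subunit of ATP synthase, and mt-Nd2, mt-Nd3 and mt-Nd4l subunits of NADH dehydrogenase.

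Over their whole annotated length, Gm10925 (678 bases), Gm28437 (783 bases), Gm28661 (681 bases) and Gm10222 (294 bases) had 0 mismatches to the mitochondrial gene. Gm28438 (345 bases) had 1 mismatch, at the third base, and Gm13339 (510 bases) had 17, an identity of 96.7%. The following stretches show the 3 kinds of copy, with the base in capitals wherever the copy and the mitochondrial gene differ. They were read from the GENCODE vM21 transcripts on GRCm38, 5′ to 3′ on the strand of the gene. The first pair, the start of Gm10925 (chr1:24614592-24614651) and of mt-Atp6 (chrM:7927-7986), is shown because no base separates them.
Gm10925: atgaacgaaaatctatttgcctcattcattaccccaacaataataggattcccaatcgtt
mt-Atp6: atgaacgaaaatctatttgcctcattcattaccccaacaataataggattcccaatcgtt
The second pair, the start of Gm28438 (chr1:24613060-24613119) and of mt-Nd3 (chrM:9459-9518), holds the only difference between these genes, C3T counted from the first base of the copy.
Gm28438: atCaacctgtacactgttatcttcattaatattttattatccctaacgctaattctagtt
mt-Nd3: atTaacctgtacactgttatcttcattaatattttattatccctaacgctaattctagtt
The third pair is a stretch of Gm13339 (chr2:22590336-22590395) and of mt-Nd2 (chrM:4580-4639) with 4 of its mismatches, G140A, T153C, C183T and C198T counted from the first base of the copy.
Gm13339: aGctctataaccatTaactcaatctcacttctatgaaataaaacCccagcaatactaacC
mt-Nd2: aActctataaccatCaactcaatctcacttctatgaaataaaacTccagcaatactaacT

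The reads of this study were single-end and 50 bases long, so each copy was cut into all of its 50-base windows and these were searched for in the annotated mitochondrial genes. Every window of Gm10925, Gm28437, Gm28661 and Gm10222 was found there, and so was 98.99% of those of Gm28438. Only 17.57% of the windows of Gm13339 had an exact match. A read from inside the first 4 copies and the same read from the mitochondrial transcript cannot be told apart by sequence. How reads with more than a single best position were treated is not given in the sources used here, and neither is the strand setting of the counting.

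Library totals ranged from 23128589 to 40476492 counts. The library labelled Ts65Dn replicate 3 went against its label in both regions: over 80 triplicated Mmu16 genes its median fold over the wt mean was 1.02 in HIP and 1.01 in EC, whereas the other 5 Ts65Dn mice lay between 1.43 and 1.54. It was kept as labelled. The log2 fold changes of the members between genotypes and between regions are also given without it, and most other values are not. The regions followed their labels, with the summed level of 7 dentate and CA markers at 565 to 723 CPM in HIP and 205 to 315 CPM in EC. CPM (counts per 1000000) uses library sizes scaled by TMM, and CPM per kb divides it by the length of the gene so that genes can be compared.

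The members on chromosome 1 held far more counts than the mitochondrial genes they match. Over the 24 libraries the level of Gm10925 was 1176 CPM per kb at the median, with a range of 648.5 to 2656, whereas mt-Atp6 itself stood at 12.7 (7.81 to 28.7). Gm28437 had a median of 764 CPM per kb against 10.02 for mt-Co3, and Gm28661 one of 599 against 9.89 for mt-Co2. Each of these copies therefore took nearly all the counts of its pair, in all 24 libraries. The share of the counts of a pair that fell on the copy was 98.3% to 99.3% for Gm10925 with mt-Atp6, 97.9% to 99.3% for Gm28437 with mt-Co3 and 97.5% to 99.1% for Gm28661 with mt-Co2.

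The shorter members showed the same split at a lower level. Gm28438 stood at 157 CPM per kb at the median and mt-Nd3 at 2.29, with 12 to 69 counts per library on mt-Nd3. Gm10222 stood at 118 CPM per kb and mt-Nd4l at 1.89, with 4 to 63 counts per library on mt-Nd4l. Among the members, Gm13339, the copy that most reads can tell from its source, was the exception: it stood at 43.5 CPM per kb against 4087 for mt-Nd2, and took 0.323% to 0.812% of the counts of the pair. Other copies in the same blocks differed. Gm28439, which matches part of mt-Nd4 with 0 mismatches, took 5.67% to 8.77% of its pair. Gm29216 and Gm13340 took 3.91% to 8.66% and 3.64% to 5.63% with mt-Co1, and Gm13341 took 35.4% to 83.4% with mt-Co2.

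The mitochondrial genes themselves fell into separate ranges of level. Their windows were searched for only in the 6 members and the other pseudogenes within 20 kb of them. Copies elsewhere in the genome were not searched. mt-Nd1, mt-Nd5, mt-Nd6 and mt-Cytb, which lie outside the span covered by the copies searched, had medians of 2062 to 6861 CPM per kb. mt-Nd2, mt-Co1 and mt-Nd4, of which 8.19%, 51.1% and 62.2% of windows were found in a copy, stood at 4087, 5533 and 2349. mt-Co2, mt-Atp6, mt-Co3, mt-Nd3 and mt-Nd4l, of which 97.99% to 100% of windows were found in a copy, stood at 1.89 to 12.7. mt-Atp8 had a median of 2.56 CPM per kb and no window in the copies searched, although it lies between mt-Co2 and mt-Atp6, within the span that chromosome 1 holds. Per kb, each of the 5 members on chromosome 1 stood between its source and the genes outside the span.

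**Figure D1:**
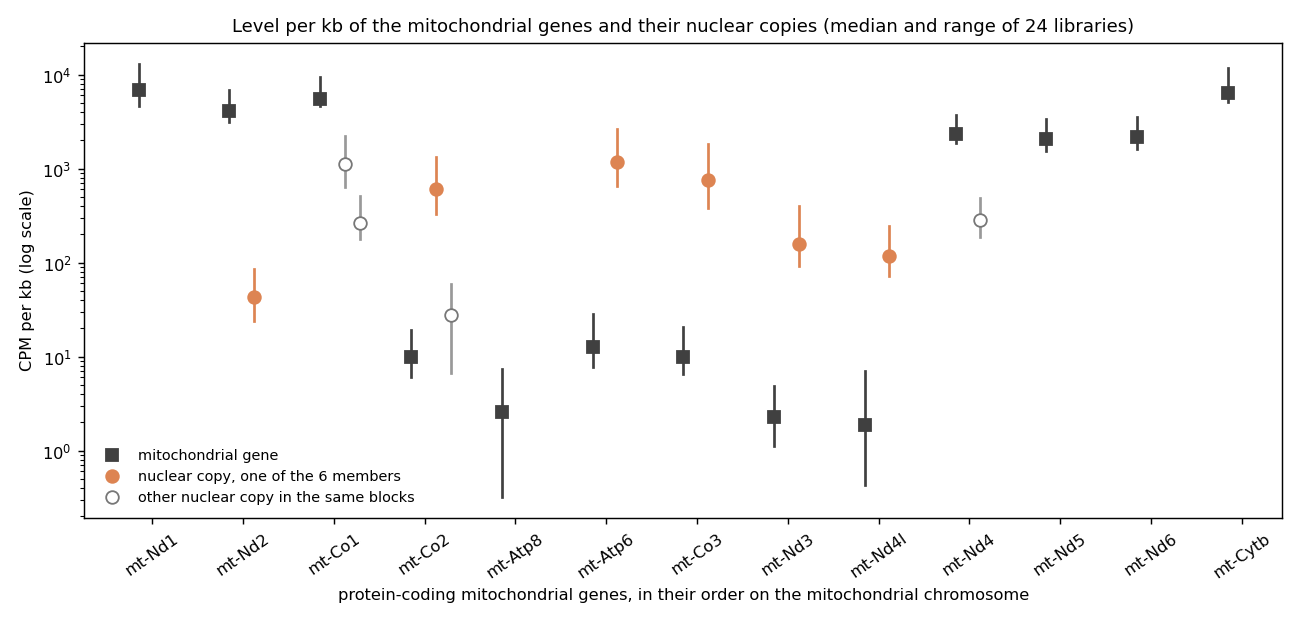
Level in CPM per kb (log axis) of the 13 protein-coding mitochondrial genes in chromosomal order (squares) and of their nuclear copies (filled circles: the 6 members; open circles: other copies in the same blocks), with the median and the range over 24 libraries. For mt-Co2, mt-Atp6, mt-Co3, mt-Nd3 and mt-Nd4l the copy lies above the mitochondrial gene, whereas Gm13339 lies below mt-Nd2. The copies of mt-Co1 and mt-Nd4 also lie below their sources.

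The members were then followed through the 4 groups, starting with the copies of the ATP synthase and cytochrome c oxidase genes. In HIP, Gm10925 ran from 786 to 893 CPM in wt mice with a median of 857.5, and from 439.7 to 579.6 CPM in Ts65Dn mice with a median of 519.8. In EC it ran from 1160 to 1801 CPM in wt mice (median 1282) and from 576 to 923 CPM in Ts65Dn mice (median 778). The genotypes did not overlap in either region, and wt replicates 2 and 3 were the high libraries of the wt EC group. The share of all genes whose genotypes do not overlap is not given here. Gaps between genotypes, here and below, are therefore a description from which nothing is read.

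Gm28437 lay at 545 to 634 CPM (median 575) in wt HIP and at 301 to 415 CPM (median 379) in Ts65Dn HIP. In EC it lay at 846 to 1437 CPM (median 953) in wt and at 427 to 742 CPM (median 625) in Ts65Dn. The lowest wt library was again above the highest Ts65Dn library in each region. Gm28661 lay at 371 to 433 CPM (median 393) in wt HIP and at 222 to 292 CPM (median 252) in Ts65Dn HIP. In EC its values were 509 to 902.5 CPM (median 608.5) in wt and 278 to 459.9 CPM (median 419.8) in Ts65Dn. These groups did not overlap either, and wt replicate 2 stood highest in EC.

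The copies of NADH dehydrogenase genes had lower levels. Gm28438 lay at 50.2 to 63.3 CPM (median 54.2) in wt HIP and at 31.7 to 42.5 CPM (median 35.01) in Ts65Dn HIP. In EC it lay at 77.6 to 136 CPM (median 89.1) in wt and at 34.0 to 73.7 CPM (median 53.5) in Ts65Dn. The Ts65Dn EC mice were widely spread, and their highest mouse came close to the lowest wt mouse without reaching it.

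Gm10222 lay at 32.8 to 41.6 CPM (median 36.4) in wt HIP and at 21.5 to 25.0 CPM (median 23.6) in Ts65Dn HIP. In EC it lay at 44.7 to 72.8 CPM (median 48.5) in wt and at 21.4 to 37.5 CPM (median 28.3) in Ts65Dn. A gap separated the genotypes in both regions. Gm13339, on the other chromosome, lay at 22.6 to 28.1 CPM (median 24.7) in wt HIP and at 12.2 to 15.3 CPM (median 14.2) in Ts65Dn HIP. In EC it lay at 27.4 to 43.1 CPM (median 34.0) in wt and at 14.3 to 21.8 CPM (median 17.4) in Ts65Dn, again with no overlap.

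**Figure D2:**
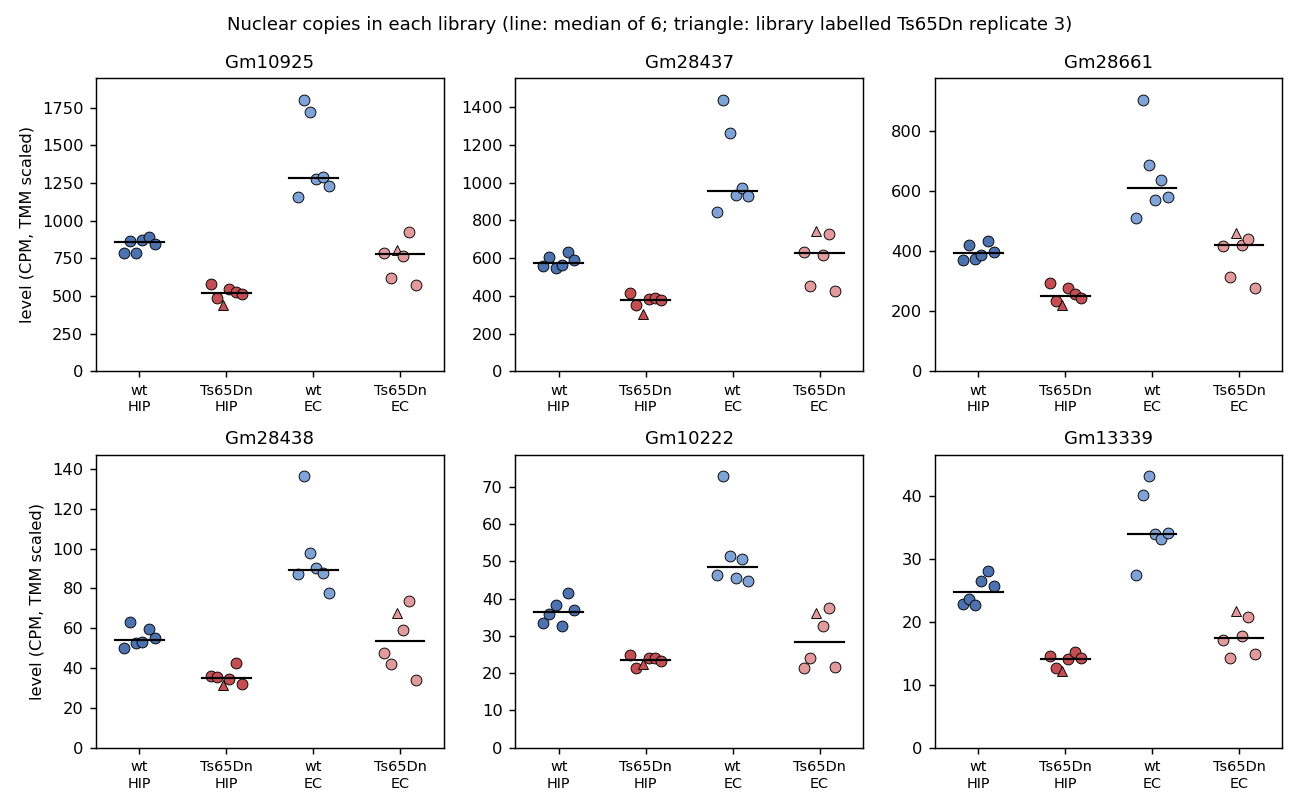
CPM of each member in the 24 libraries, in 4 groups of 6, with a line at the median of each group and a triangle for the library labelled Ts65Dn replicate 3. In all 6 panels the Ts65Dn libraries of a region lie below the wt libraries of that region, and wt EC holds the highest values.

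As log2 fold changes of Ts65Dn over wt from edgeR, with 6 mice in each group, the members stood at -0.64 (Gm28661, SE 0.07) to -0.85 (Gm13339, SE 0.07) in HIP. In EC they stood at -0.75 (Gm28661, SE 0.14) to -1.003 (Gm13339, SE 0.12). All 6 were called lower in HIP at an adjusted p under 0.05, where 0.501% of the 17355 genes tested were, and all 6 in EC, where 1.35% of 17049 were. Since this contrast chose the members, nothing is read from these counts. With the replicate number as a block, which paired mice that share only a number, 2 of the 6 were called lower in EC. Fewer cells of a type and less RNA per cell cannot be told apart in these bulk samples. The 5 blood markers, all detected, summed to 101 to 153 CPM in wt HIP and 57.3 to 151 CPM in Ts65Dn HIP, and to 139 to 544.5 and 104.5 to 300.1 CPM in EC. The 3 neuronal markers summed to 4414 to 5088 and 4334 to 5302 CPM in HIP, and to 5584 to 7040 and 5072 to 6043 CPM in EC. Each of these ranges overlapped between genotypes, and their part in the result was not tested.

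The library labelled Ts65Dn replicate 3, whose triplicated genes were at the wt level, did not have wt values of the copies. A sum of the 6 copies is mostly Gm10925, Gm28437 and Gm28661, with medians of 22790, 17562.5 and 11636 counts per library. The other members had medians of 607 to 1688.5 counts. The 6 copies summed to 1030 CPM in the HIP library of this mouse, the lowest of the 6 Ts65Dn mice, against 1820 to 2090 CPM in wt HIP. In EC they summed to 2134 CPM, the second highest of the Ts65Dn mice, against 2676 CPM in the lowest wt mouse. Without this mouse the log2 fold changes were -0.61 (Gm28661) to -0.82 (Gm13339) in HIP and -0.80 (Gm28661) to -1.07 (Gm13339) in EC. This contrast chose the members, so these values are a description only.

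Of the 4 other copies in the same blocks, 3 had negative log2 fold changes of Ts65Dn over wt, closer to 0 than those of the members. Gm28439, a copy of part of mt-Nd4 with 0 mismatches, had a log2 fold change of -0.45 (SE 0.07) in HIP and -0.62 (SE 0.10) in EC. Gm29216 and Gm13340, copies of mt-Co1, had -0.53 and -0.35 in HIP and -0.55 and -0.40 in EC. The genotypes did not overlap for these 3 copies in HIP, and in EC this held only for Gm28439. Gm13341, a copy of mt-Co2 on chromosome 2, was at 0.46 (SE 0.31) in HIP and 0.20 (SE 0.42) in EC, with overlapping groups. The processed pseudogene Tubb4b-ps2, next to the chromosome 1 block but without mitochondrial sequence, was at 0.45 in HIP and 0.49 in EC on the same scale.

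The mitochondrial genes were followed in the same fits. The 13 protein-coding genes had negative log2 fold changes of Ts65Dn over wt in both regions, with a median of -0.28 in HIP and -0.44 in EC, whereas the median of the members was -0.66 and -0.85. Of the 13, 1 was called lower in HIP (mt-Atp6, -0.57, SE 0.12) and 2 in EC (mt-Atp6, -0.94, SE 0.18, and mt-Nd1, -0.57, SE 0.12). mt-Co1 had the value nearest to 0, -0.06 in HIP and -0.20 in EC, and mt-Atp8, with 2 to 64 counts per library, the most negative, -1.11 and -1.32. mt-Nd3 stood at -1.004 (SE 0.25) in HIP and -0.87 (SE 0.24) in EC. mt-Nd4l stood at -0.74 (SE 0.25) in HIP and -1.041 (SE 0.53) in EC. Both sources, which hold few counts, were thus within or below the range of the members in the same region. In HIP the genotypes overlapped for all 13, and in EC for 12, mt-Atp6 being the exception. Some genes of the mitochondrial chromosome that encode no protein were called lower too. Of those, the rRNA genes were nearer to 0 than any member in the same region, and mt-Te was more negative than any member. The rRNA gene mt-Rnr2 was called lower in both regions (-0.47, SE 0.10, in HIP and -0.70, SE 0.11, in EC, where the genotypes did not overlap), and mt-Rnr1 in EC (-0.60, SE 0.11, against -0.41, SE 0.09, in HIP). The tRNA gene mt-Te, with 109 to 732 counts per library, was called lower in both regions with no overlap, at -1.28 (SE 0.13) in HIP and -1.25 (SE 0.19) in EC. Over all genes tested the median was 0.00 in both regions.

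**Figure D3:**
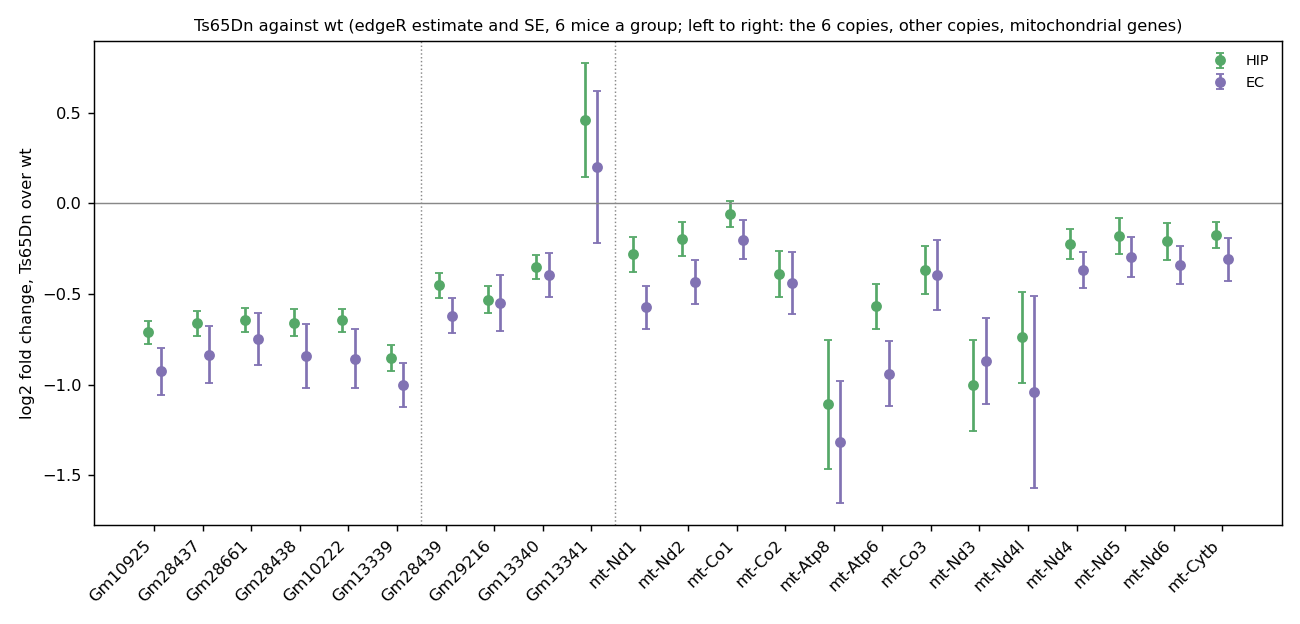
log2 fold change of Ts65Dn over wt with its SE (edgeR, 6 mice in each group) in HIP and EC for the 6 members, 4 other copies in the same blocks and the 13 protein-coding mitochondrial genes. The members lie between -0.64 and -1.003. mt-Nd3, mt-Nd4l and mt-Atp8 lie within or below the range of the members in the same region, and so does mt-Atp6 in EC. The other protein-coding mitochondrial genes, and mt-Atp6 in HIP, are less negative than every member in the same region. Among these, mt-Nd1, mt-Nd5, mt-Nd6 and mt-Cytb lie between -0.18 and -0.57.

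Set against the 13 protein-coding mitochondrial genes of the same library, the summed copies, mostly Gm10925, Gm28437 and Gm28661, were also lower in Ts65Dn mice. Pair by pair with their own sources, the picture was mixed. For every 100 counts on the 13 protein-coding genes, the 6 copies held 5.15 to 6.08 counts in wt HIP (median 5.90) and 3.48 to 4.86 in Ts65Dn HIP (median 4.16). In EC they held 6.42 to 8.42 counts in wt (median 7.02) and 4.24 to 5.61 in Ts65Dn (median 5.06). The genotypes did not overlap in either region. Against the 4 genes outside the span of the copies, a choice made after the data were seen, the values were 9.43 to 11.2 and 6.51 to 9.38 per 100 counts in HIP, and 11.8 to 14.8 and 7.90 to 10.7 in EC. These are ratios of the contrast that chose the members and carry no test. Against the summed sources of the 6 members, the copies held 42.6 to 48.8 counts per 100 in wt HIP and 26.5 to 42.2 in Ts65Dn HIP. In EC the genotypes overlapped, at 53.3 to 72.9 in wt and 38.1 to 54.7 in Ts65Dn. Nearly all counts of that sum were on mt-Nd2, the source of Gm13339 alone, with a median of 125646 per library. The other sources had medians of 14.5 to 257 counts. The sum therefore does not set the other copies against their own sources. Taken pair by pair, the ratio of copy to source had a higher median in Ts65Dn than in wt mice for Gm10925 with mt-Atp6 in EC (102 against 99.1) and for Gm28438 with mt-Nd3 in HIP (55.9 against 38.8), and a lower one in the other member pairs and regions. Gm13339 with its own source, mt-Nd2, gave 0.545% to 0.618% of the pair's counts in wt HIP and 0.323% to 0.450% in Ts65Dn HIP, and 0.564% to 0.812% and 0.384% to 0.507% in EC.

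The comparison of HIP with EC within the same mice did not choose the members. All 6 copies were lower in HIP than in EC by edgeR's quasi-likelihood test with a term for each mouse. The share of all 18109 tested genes called lower in HIP was 32.9%, and the share called higher was 35.5%, so a call between these regions is common. Gm28437, a copy of mt-Co3, differed most, with a log2 fold change of -0.76 (SE 0.09) and a Benjamini-Hochberg adjusted p of 5.05e-07 (edgeR's quasi-likelihood test). It was lower in HIP in 12 of 12 mice, by 0.19 to 1.30 on the log2 scale.

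Gm28438, Gm28661 and Gm10925 followed closely. Their log2 fold changes were -0.67 (SE 0.08), -0.64 (SE 0.07) and -0.62 (SE 0.07), and each was lower in HIP in 12 of 12 mice. Their adjusted p were 8.00e-07, 2.44e-07 and 6.58e-07 by the same edgeR quasi-likelihood test. The remaining members changed less. Gm13339 was at -0.42 (SE 0.07, adjusted p = 4.17e-05, edgeR), lower in 12 of 12 mice, and Gm10222 was at -0.39 (SE 0.08, adjusted p = 0.000550, edgeR), lower in 10 of 12. Without the mouse labelled Ts65Dn replicate 3 the 6 values were -0.36 to -0.71 and all 6 were called.

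Most mitochondrial genes were lower in HIP as well. Of the 13 protein-coding genes, 10 were called lower by edgeR and 0 higher, with a median log2 fold change of -0.30, against -0.63 for the members and 0.01 over all genes tested. mt-Co3 had the most negative value, -0.44 (SE 0.09), followed by mt-Cytb at -0.44 (SE 0.05). mt-Nd4l (0.56, SE 0.27), mt-Atp8 (0.42, SE 0.20) and mt-Nd3 (0.13, SE 0.14) were not called and are the genes with the fewest counts. The rRNA genes mt-Rnr1 and mt-Rnr2, which lie outside the span of the copies, were at -0.37 (SE 0.05) and -0.31 (SE 0.05). Markers of other cells moved with the region too: 3 neuronal markers, all detected, summed to 5072 to 7040 CPM in EC and 4334 to 5302 CPM in HIP, and 5 blood markers, all detected, to 104.5 to 544.5 CPM in EC and 57.3 to 153 CPM in HIP. The 6 choroid plexus markers, all detected, moved the other way and furthest, with 55.2 to 5106 CPM in HIP and 9.99 to 50.7 CPM in EC. The part of these in the result was not tested.

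**Figure D4:**
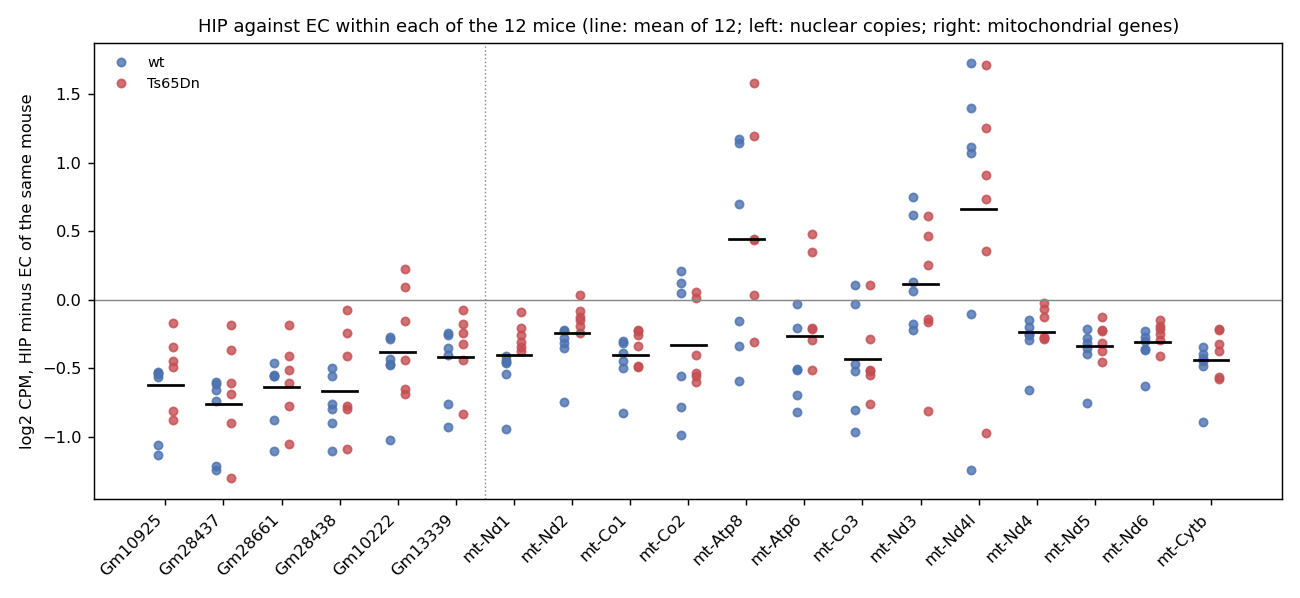
log2 CPM in HIP minus log2 CPM in EC of the same mouse, for each of 12 mice (blue: wt; red: Ts65Dn), with a line at the mean, for the 6 members (left) and the 13 protein-coding mitochondrial genes (right). Apart from 2 mice for Gm10222, all points of the members lie below 0.

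How counts were split between a copy and its own source was compared between the regions with the ratio of the 2 counts in each library, 0.5 being added to each count. For the 5 pairs on chromosome 1, whose sequences are identical or nearly so, this ratio describes where the reads were counted and cannot show which of the 2 loci changed. The log2 ratio in HIP was compared with that in EC by an exact two-sided sign-flip permutation test over 12 mice, with 6 members tested and p-values not adjusted. The smallest p that 12 mice allow is 0.000488. All 6 ratios were lower in HIP at an unadjusted p under 0.05. The share of all genes that would pass such a test is not given here, so the counts of members passing have no background.

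The ratio of Gm10925 to mt-Atp6 was lower in HIP by a mean of -0.36 ± 0.44 on the log2 scale (SD, n = 12 mice, exact permutation p = 0.00439), in 11 of 12 mice. That of Gm28437 to mt-Co3 was lower by -0.33 ± 0.43 (exact permutation p = 0.00684), in 10 of 12 mice. That of Gm28661 to mt-Co2 was lower by -0.30 ± 0.42 (exact permutation p = 0.0283), in 8 of 12 mice. The last of these was the least even across mice, and its p was 0.0527 to 0.0566 without any of wt replicates 1, 3 or 4 or of Ts65Dn replicates 1, 3 or 4.

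The ratio of Gm28438 to mt-Nd3 was at -0.78 ± 0.42 (exact permutation p = 0.000977), lower in 11 of 12 mice. That of Gm10222 to mt-Nd4l was at -1.04 ± 0.78 (exact permutation p = 0.00293), lower in 10 of 12 mice. That of Gm13339 to mt-Nd2, where the sequences can mostly be told apart, was at -0.18 ± 0.21 (exact permutation p = 0.000977), lower in 11 of 12 mice. Since mt-Nd3 and mt-Nd4l hold few counts, the ratio was also taken to other mitochondrial genes.

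With the 13 protein-coding genes summed in place of the source, 4 of the 6 ratios remained under 0.05. Gm28437 was at -0.39 ± 0.27, Gm28438 at -0.30 ± 0.24, Gm28661 at -0.27 ± 0.19 and Gm10925 at -0.26 ± 0.23, each lower in HIP in 11 of 12 mice (exact permutation p = 0.000977 for Gm28437, Gm28661 and Gm10925). The call was lost for Gm10222 (-0.02 ± 0.25, exact permutation p = 0.833) and Gm13339 (-0.05 ± 0.22, exact permutation p = 0.446). For these 2 copies a difference from the mitochondrial genes as a whole was not detectable beyond the spread between mice.

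Whether the difference between genotypes was the same in HIP and EC was tested as an interaction, which the choice of members did not use directly although it rests on the same libraries. No member was called, and neither was any of the 18109 genes (0% called by edgeR; 742 genes had an unadjusted p under 0.05, and DESeq2 called 0). The log2 fold change was less negative in HIP than in EC by 0.09 (Gm28661, SE 0.14) to 0.23 (Gm10222, SE 0.16). The standard errors of the 6 members were 0.14 to 0.17, so a difference of this size was not detectable with 12 mice.

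The members varied together. After the mean of each of the 4 groups was removed, Gm10925 and Gm28437 had a Pearson r of 0.96 over 24 libraries, Gm28437 and Gm28661 one of 0.96, and Gm10925 and Gm28661 one of 0.93. The lowest value among the 15 pairs was that of Gm10222 with Gm13339, 0.68. Gm13339 lies on another chromosome than the rest, and its r with the 5 others was 0.68 to 0.89. These are descriptions over libraries that share their scaling.

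The sum of the 6 copies, mostly Gm10925, Gm28437 and Gm28661, followed the sum of the 13 protein-coding mitochondrial genes in EC. Across 6 mice, on log2 CPM, Pearson r was 0.87 in wt EC (Spearman rho 0.94) and 0.90 in Ts65Dn EC (rho 0.83). In HIP r was 0.57 in wt (rho 0.37) and 0.09 in Ts65Dn (rho 0.03). Without the 2 mice farthest from the median of the mitochondrial sum, r was 0.44 in wt EC and 0.84 in Ts65Dn EC, and -0.57 in wt HIP and -0.52 in Ts65Dn HIP. Leaving out those mice turned the sign in both HIP groups, whereas r in wt EC fell but stayed positive. In wt EC the result depended on the mitochondrial sum. Against mt-Nd1, mt-Nd5, mt-Nd6 and mt-Cytb summed, r was 0.91, and 0.74 without 2 mice. Against the sources summed it was 0.80, and -0.14 without 2 mice. Whether a mouse with a high ratio of copies to mitochondrial genes in EC also had a high ratio in HIP was followed within each genotype, where r was -0.68 in wt mice (rho -0.03; 0.46 without 2 mice) and -0.17 in Ts65Dn mice (rho -0.03; -0.69 without 2 mice). Leaving out those mice turned the sign in wt mice and moved r further below 0 in Ts65Dn mice.

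**Figure D5:**
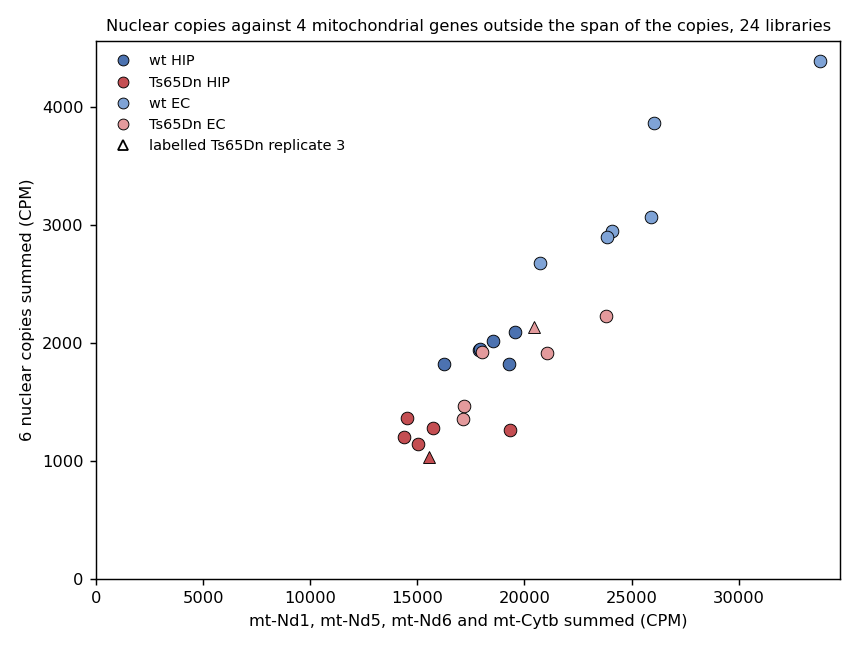
CPM of the 6 copies summed against CPM of mt-Nd1, mt-Nd5, mt-Nd6 and mt-Cytb summed, for 24 libraries coloured by genotype and region, with triangles for the mouse labelled Ts65Dn replicate 3. Most Ts65Dn libraries lie below wt libraries with a like mitochondrial sum, and the highest point is wt EC replicate 2, at 4390 CPM.

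Over the 24 libraries, each region centred on its own mean, the genes most like the members were sought among 14849 genes with a mean of at least 1 CPM. They were Gm15500 (r = 0.93), Gm5835 (r = 0.92), Slc1a3 (r = 0.91), Gm5963 (r = 0.90) and Gm8756 (r = 0.90). Slc1a3, the glutamate transporter of astrocytes, ran from 762 to 839 CPM in wt HIP and from 655 to 737 CPM in Ts65Dn HIP. In EC it ran from 806 to 1078 CPM in wt and from 680 to 843 CPM in Ts65Dn, where the groups overlapped. The other 4 are annotated as pseudogenes. The likeness includes the genotype difference by which the members were chosen, and it is given as a description.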

How the data were processed

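RNA-Seq counts of HIP and EC from 6 Ts65Dn and 6 wt mice were used. The authors aligned the reads to GRCm38 with Hisat2 and deposited raw counts per gene from HTSeq-count for 55385 genes, without normalization. Their tables of comparisons by DESeq2 and FCROS (fold changes, p-values) were not used. The library kit is described as stranded total RNA with Ribo-Zero in the methods and as stranded mRNA in the labels.

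Identifiers were matched to GENCODE vM21 (99.6% found), which gave positions and sequences. edgeR 4.0.16 (R 4.3.3) was run on all genes with filterByExpr, TMM scaling, the quasi-likelihood test and Benjamini-Hochberg adjustment at 0.05: for the regions and the interaction on 24 libraries with a term for each mouse, and for the genotypes on 12 libraries of a region. HIP and EC were paired by the mouse number in the sample titles, and deviations from the group means correlated at 0.18 to 0.43 within a mouse. Exact sign-flip permutation tests used Python 3.11.15. On simulated counts with 200 genes changed 1.5-fold, 153 were recovered for the regions and 100 for the interaction. Alternatives were DESeq2 1.42.0, its size factors, scaling on nuclear genes without the copies, no filter or 10 counts in every library, the replicate block, and each mouse left out. The genes named are the 6 members, their sources, the other pseudogenes within 20 kb, the mitochondrial genes by list, and the 5 genes most like the members. Members and lists were chosen with earlier results of these data known.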

Additional observations from a re-analysis of the deposited data

Results flagged for a closer look

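Among 28 groups of 6 libraries (6 members and their ratio to the 13 protein-coding mitochondrial genes, in 4 groups each), 2 held a library far from the others, and chance gives about 1 in 20. In wt EC, replicate 2 had 72.8 CPM of Gm10222 where the other 5 mice had 44.7 to 51.5 CPM. The same library had 136 CPM of Gm28438 where the others had 77.6 to 97.6 CPM. Its ratio of copies to mitochondrial genes, 7.26 per 100 counts, lay within the range of the wt EC group, and it also held the highest level of the 13 protein-coding mitochondrial genes of all 24 libraries, 60482 CPM. Without this mouse the log2 fold change of Ts65Dn over wt in EC, the contrast that chose the members, stayed negative for all 6 members.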

How the results depend on the processing

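The 6 members were called lower in HIP than in EC under every alternative, with log2 fold changes of -0.33 to -0.81 and adjusted p (edgeR or DESeq2) up to 0.00159. In every fit 10 protein-coding mitochondrial genes were called lower, of 13 tested, or of 11 with 10 counts in every library. Another 1 was called higher with no filter, with DESeq2, and without wt replicate 1, 2 or 4 or Ts65Dn replicate 5. The other fits called 0 higher. The genotype comparison chose the members, so its calls are a description and no support is drawn from how many fits made them. In it all 6 members were called lower in HIP in every fit. In EC 5 or 6 were called when a mouse was left out (5 without wt replicate 3 or 4 or Ts65Dn replicate 1, 2 or 4, Gm28438 being lost) and 2 with the replicate block. The replicate numbers do not pair wt with Ts65Dn mice: deviations of same-numbered mice correlated at -0.20 to 0.15 in HIP and -0.08 to 0.17 in EC, and only 1 of 6 wt mice correlated best with its own number in each region. With the replicate block 14 genes were called higher and 15 lower in HIP, in place of 94 and 87, and 22 and 14 in EC, in place of 196 and 230. DESeq2 called 302 and 360 in HIP and 494 and 647 in EC; no filter on low counts gave 128 and 147 in EC. With a mouse left out, 27 to 185 genes were called higher and 27 to 133 lower in HIP, and 38 to 244 and 52 to 444 in EC. Protein-coding mitochondrial genes called lower went from 1 in HIP to 0 with no filter and 0 to 2 with a mouse left out, and from 2 in EC to 5 with DESeq2, 1 with the replicate block and 0 to 3 with a mouse left out. In the interaction no member was called in any fit, with or without a term for each mouse (no replicate block); with no filter 8 genes were called higher and 29 lower. The ratio of Gm10222 to its source turned to 0.017 (exact permutation p = 0.814) with the 4 mitochondrial genes outside the span, chosen after the data were seen. Pearson r across mice turned to -0.17 in Ts65Dn HIP with library totals. With the sources summed, nearly all of whose counts were on mt-Nd2, it turned to -0.027 there. With the same sum, r of the ratio between regions turned to 0.14 in wt and 0.39 in Ts65Dn mice. The cause was not tested for any of these. Counts of 4 to 69 on mt-Nd3 and mt-Nd4l limit their ratios.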
